A study of Mus musculus with 2 samples.

Results

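The signal transducers and activators of transcription (STATs) are the transcription factors that carry cytokine and hormone signals to the nucleus. The 6 STAT genes described here, *Stat2*, *Stat3*, *Stat4*, *Stat5a*, *Stat5b* and *Stat6*, were taken by symbol from 25810 listed genes. No value set the choice, but earlier results of these data were known when it was made. A further STAT gene was not analysed here. Poly(A) RNA from mammary epithelial cells (MECs) of mouse inguinal glands was sequenced in 2 libraries at lactation day 3, 1 from wild-type (WT) mice and 1 from Igfbp7-/- mice, which carry a germline deletion of the first exon of *Igfbp7*, the gene of a secreted insulin-like growth factor binding protein. The labels give C57BL/6 as the genetic background of both groups, whereas the methods state that the knockout was made on CD1, and the age and number of the animals behind each library were not found in the sources used here. Both libraries came from cells depleted of lineage-positive cells with magnetic beads, against CD45 and Ter119 and, in the methods, CD31, for which the labels have CD35. These antigens mark leukocytes, erythroid cells and, for CD31, endothelial cells.

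A STAT protein is phosphorylated by a Janus kinase (JAK) at an activated receptor, pairs with another STAT and binds DNA in the nucleus. In the mammary gland, prolactin acts through Jak2 on Stat5a and Stat5b, which drive the growth of the milk-secreting alveoli and the transcription of milk protein genes. When suckling ends, leukaemia inhibitory factor activates Stat3, which is needed for the death of the secretory cells during involution. Stat2 carries type I interferon signals together with Irf9, Stat4 carries interleukin 12 signals in lymphocytes, and Stat6 carries interleukin 4 and interleukin 13 signals. All values given here are RNA levels, and these libraries do not measure STAT protein or the phosphorylation through which STATs act. The paper examined these by Western blot in gland extracts of both genotypes at the same lactation stage. It reports less Stat5a protein, and more Stat3 and phosphorylated Stat3, in the knockout glands.

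Mapped reads numbered 34327854 in the WT library and 35016847 in the knockout library, and 82.3% and 72.3% of them fell on the listed genes. *Igfbp7*, the targeted gene, had 5224 reads in WT and 37 in Igfbp7-/-. Levels are given as RPM (the read count scaled to the library's mapped reads) within a gene, and as RPKM (RPM per kilobase of gene length) where genes are compared. With 1 library per genotype, no difference between the genotypes could be tested. The 95% intervals cover the counting of reads only and were computed on read pairs, because 75.8% and 74.1% of the counts from 1 to 20 were even. A gene is called higher or lower in Igfbp7-/- where the ratio of the RPM values, each with 0.1 RPM added, passed 1.5 times. Only genes with at least 1 RPM in 1 library were used. The counting interval was not part of the call, and for some called genes with few reads it held 0. Among all genes tested, 21.4% were called higher and 23.0% lower. Markers of several cell types differed between the libraries as well. Luminal epithelial markers were higher in Igfbp7-/- for 6 of 8 genes and lower for 0 of 8, with levels that summed to 1671 and 4079 RPM in WT and Igfbp7-/-, whereas 7 of 8 myoepithelial markers were lower, at 3569 and 1112 RPM. Whether a lower STAT level came from fewer cells of a type or from less RNA per cell cannot be told apart in these bulk libraries.

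*Stat5b*, *Stat5a* and *Stat3* lie side by side on chromosome 11. *Stat5a* and *Stat5b* are near copies, which bears on how short reads can be assigned to either. In the NCBIM37 (mm9) annotation, *Stat5b* occupied chr11:100642045-100712038 on the minus strand, *Stat5a* chr11:100720665-100746483 on the plus strand and *Stat3* chr11:100746412-100800854 on the minus strand. The gap between *Stat5b* and *Stat5a* was 8626 bases, and the 3′ ends of *Stat5a* and *Stat3* overlapped by 72 bases. The other members were found at chr10:127707629-127729905 (*Stat2*, plus strand), chr10:127080042-127098013 (*Stat6*, plus strand) and chr1:52043992-52164032 (*Stat4*, plus strand). The coding sequences of *Stat5a* and *Stat5b* were identical at 90.7% of aligned bases, whereas *Stat3* and *Stat5a* were identical at 60.3%. This was no more than for members on different chromosomes, such as *Stat5a* and *Stat6* at 65.5%.

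Reads were 35 and 75 bases long and were mapped with up to 3 mismatches. Of all stretches of 75 bases in the *Stat5a* transcript, 30.5% matched the *Stat5b* transcript within 3 mismatches, and 10.1% matched exactly. In the other direction, 22.7% of the *Stat5b* stretches matched *Stat5a* within 3 mismatches and 7.53% exactly. For stretches of 35 bases the shares within 3 mismatches were 37.9% for *Stat5a* and 28.2% for *Stat5b*. No stretch of *Stat3* of either length matched *Stat2*, *Stat4*, *Stat5a*, *Stat5b* or *Stat6*. Only the transcribed strands were compared, so the 72-base overlap of *Stat3* and *Stat5a*, on opposite strands, was not searched. The sequences below show both ends of the range for *Stat5a* and *Stat5b*, each as a 75-base stretch of coding sequence within 1 exon. The first, at chr11:100723084-100723158 (plus strand, exon 4 of *Stat5a*) and chr11:100666217-100666291 (minus strand, exon 3 of *Stat5b*), was the same in both genes, and its capitals mark identical bases.
Stat5a and Stat5b, shared stretch: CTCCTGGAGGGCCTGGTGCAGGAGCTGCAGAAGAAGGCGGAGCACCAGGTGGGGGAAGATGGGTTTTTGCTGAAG
The second, near the end of the coding sequence at chr11:100745149-100745223 (plus strand, exon 20 of *Stat5a*) and chr11:100644461-100644535 (minus strand, exon 19 of *Stat5b*), had the most differences. Here the capitals mark the 21 bases that differ.
Stat5a, most different stretch: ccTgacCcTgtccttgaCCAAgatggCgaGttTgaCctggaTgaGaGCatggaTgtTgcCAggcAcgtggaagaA
Stat5b, most different stretch: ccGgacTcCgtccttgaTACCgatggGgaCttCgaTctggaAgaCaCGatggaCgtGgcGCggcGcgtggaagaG
A read from the first stretch cannot be given to 1 of the genes by its sequence, whereas a read from the second can. The longest identical run of coding sequence was 324 bases, in exons 7 to 9 of *Stat5a* and exons 6 to 8 of *Stat5b*. With its introns this region spanned 961 bases in each gene, of which 954 were identical (99.3%). How reads that map to several places were handled is not given in the sources used here.

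*Stat3* was the most abundant of the 6 members in both libraries and stood at nearly the same level in them. It had 14656 reads in WT and 16480 in Igfbp7-/-, or 426.9 and 470.6 RPM. Per length, the level was 95.2 RPKM (93 to 97.4) in WT and 104.9 RPKM (102.6 to 107.2) in Igfbp7-/-. The log2 ratio was 0.14 (0.09 to 0.19), so the counting interval lay above 0 while the ratio of 1.1 stayed within 1.5 times. Among the 14026 genes tested, 56.1% had a lower ratio than *Stat3*, and the median log2 ratio of all of them was 0.03.

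*Stat5a*, the main Stat5 gene of the mammary gland, was lower in Igfbp7-/-. It had 2226 reads in WT and 1099 in Igfbp7-/-, or 64.8 and 31.4 RPM. The WT level was 2.06 times that of Igfbp7-/- (log2 ratio -1.04, -1.20 to -0.90), and 13% of the genes tested had a lower ratio. *Stat5b*, its neighbour, differed less. It had 1580 and 1358 reads, or 46 and 38.8 RPM, and its log2 ratio of -0.25 (-0.40 to -0.10) was within 1.5 times. A sum over both genes does not depend on which copy a shared read was given to, provided each such read was counted once, which is not known. Summed over both, the reads numbered 3806 in WT and 2457 in Igfbp7-/-, with levels of 110.9 and 70.2 RPM. The sum was 1.58 times higher in WT (log2 ratio -0.66, -0.77 to -0.56), although it came within 1.5 times when the counts were scaled to the listed genes (log2 ratio -0.47). Of the reads on both genes, *Stat5a* took 58.5% in WT and 44.7% in Igfbp7-/-.

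*Stat2*, the interferon-response STAT, was the second most abundant member in WT and was lower in Igfbp7-/-. It had 5038 reads in WT and 2171 in Igfbp7-/-, or 146.8 and 62 RPM, a difference of 2.36 times (log2 ratio -1.24, -1.35 to -1.14). *Stat4*, the least abundant, had the lowest ratio. It had 270 reads in WT and 61 in Igfbp7-/-, or 7.87 and 1.74 RPM, a difference of 4.32 times with a wide interval (log2 ratio -2.11, -2.82 to -1.62). *Stat6* was level, with 2642 and 2606 reads and 77 and 74.4 RPM, and its log2 ratio of -0.05 had an interval from -0.16 to 0.06. Its sign turned to 0.15 when counts were scaled to the listed rows other than ribosomal and small nuclear RNA.

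**Figure D1:**
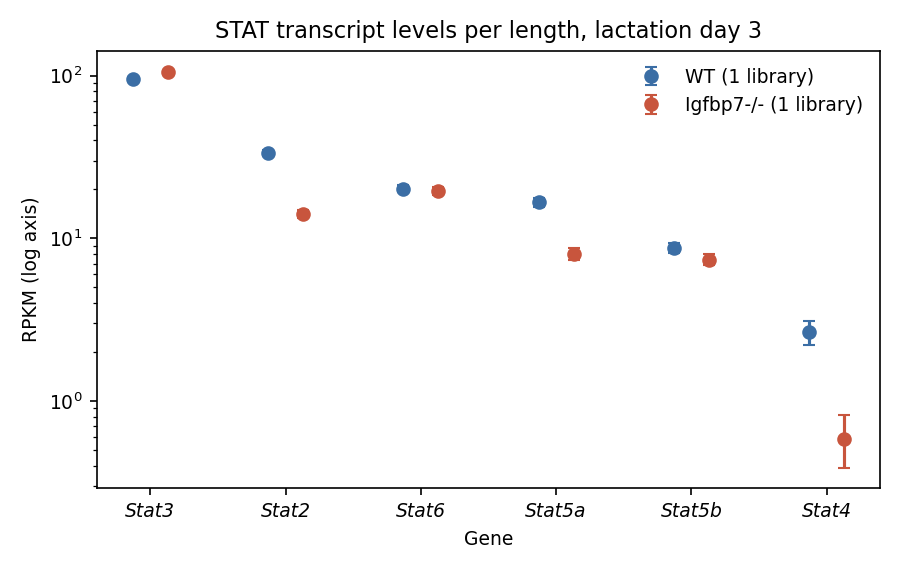
Level of each STAT gene per length (RPKM) in the WT and Igfbp7-/- libraries, 1 library each, with bars for the 95% counting interval. *Stat3* stands above the other members in both libraries, at 95.2 and 104.9 RPKM, while *Stat5a* goes from 16.6 to 8.03 RPKM and meets *Stat5b* there.

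All 6 members passed the minimum of 1 RPM. None was called higher in Igfbp7-/-, 3 were called lower (*Stat2*, *Stat4* and *Stat5a*) and 3 were within 1.5 times (*Stat3*, *Stat5b* and *Stat6*). Among all genes tested, 21.4% were called higher, 23.0% lower and 44.5% in either direction, and the median log2 ratio over the members was -0.65. No member changed its side of 1.5 times under 9 other ways of scaling or adding a pseudocount. Under these, *Stat5a* ranged from -1.08 to -0.85, *Stat5b* from -0.28 to -0.05 and *Stat3* from 0.11 to 0.34. Over all genes, 3006 were called higher and 3231 lower, so that 48.2% of the calls were higher. This share was 62.2% with counts scaled to the listed genes, which moved the median of all genes by 0.19, and 63% without ribosomal and small nuclear RNA rows, which moved it by 0.20.

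**Figure D2:**
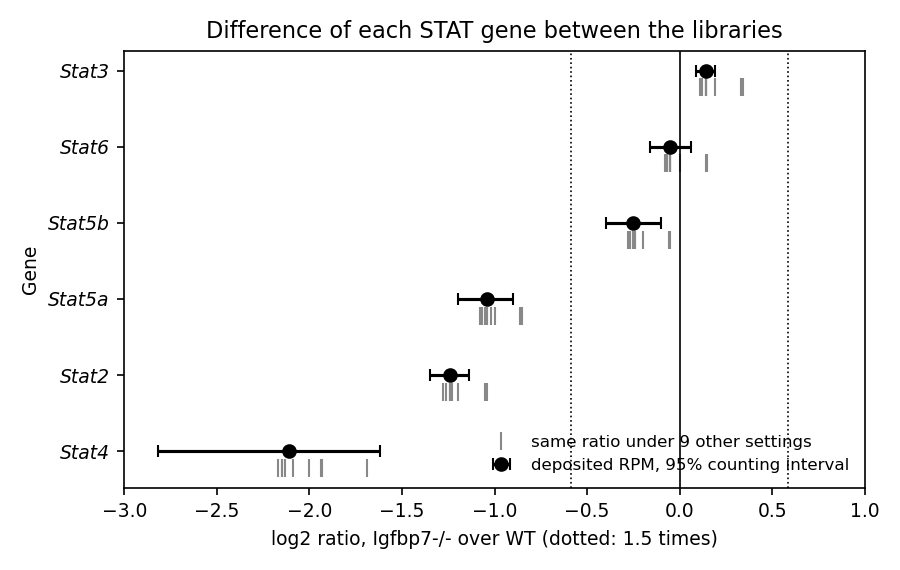
Log2 ratio of Igfbp7-/- to WT for each STAT gene, from the deposited RPM with 0.1 RPM added (points, with the 95% counting interval) and under 9 other settings (grey ticks). Dotted lines mark 1.5 times, and *Stat5a*, *Stat2* and *Stat4* lie left of the lower line under every setting, at -1.04, -1.24 and -2.11 in the deposited values.

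Per length, the order of the levels in WT was *Stat3*, *Stat2* (33.3 RPKM), *Stat6* (20.2), *Stat5a* (16.6), *Stat5b* (8.76) and *Stat4* (2.64), and no counting intervals of neighbours in this order overlapped. In Igfbp7-/- *Stat6* (19.6 RPKM) came before *Stat2* (14.1), followed by *Stat5a* (8.03, 7.36 to 8.72) and *Stat5b* (7.38, 6.84 to 7.96), whose intervals overlapped, and *Stat4* (0.584). *Stat3* made up 53.8% of the RPKM summed over the 6 members in WT and 67.9% in Igfbp7-/-. The share of *Stat5a* went from 9.39% to 5.19% and that of *Stat2* from 18.9% to 9.11%, while that of *Stat5b* was 4.96% and 4.78%. RPKM depends on the gene length used. With the longest annotated *Stat3* transcript of 6042 bases in place of the authors' 4487, *Stat3* stood at 70.7 and 77.9 RPKM and remained the highest member in both libraries.

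The switch from Stat5 to Stat3 signalling accompanies the passage from lactation to involution, and the ratio of the RNAs within a library does not depend on how that library was scaled. *Stat3* was at 5.74 times the RPKM of *Stat5a* in WT (5.39 to 6.12) and at 13.1 times in Igfbp7-/- (12 to 14.3). The Stat3 to Stat5a ratio was thus 2.28 times higher in Igfbp7-/- (log2 change 1.19, 1.03 to 1.35). Against *Stat5b*, the ratio was 10.9 in WT and 14.2 in Igfbp7-/-, a log2 change of 0.39 (0.23 to 0.54). The log2 ratios behind the change against *Stat5a* were -1.04 for *Stat5a* and 0.14 for *Stat3*. Against the sum of both Stat5 genes the log2 change was 0.80 (0.69 to 0.92).

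The Stat5 genes also differed from one another. *Stat5b* stood at 0.528 times the RPKM of *Stat5a* in WT (0.481 to 0.579) and at 0.919 times in Igfbp7-/- (0.821 to 1.03), a log2 change of 0.80 (0.59 to 1.01). *Stat6*, of which no 75-base stretch matched *Stat5a*, went from 1.22 to 2.44 times the RPKM of *Stat5a* (0.81 to 1.19 for the log2 change). *Stat2* and *Stat5a* were both lower, and their ratio was 2.01 in WT and 1.75 in Igfbp7-/- (log2 change -0.20, -0.38 to -0.01). *Stat3* against *Stat6* gave 0.19 (0.07 to 0.31). *Stat6* against *Stat5b* gave 0.20. The largest change was that of *Stat3* against *Stat2*, from 2.85 in WT to 7.45 in Igfbp7-/- (log2 change 1.38). A higher ratio of *Stat3* in Igfbp7-/- was thus not particular to *Stat5a*. The 8 pairs were computed from the same 5 counts in each library, without *Stat4*, so they are not independent of one another.

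**Figure D3:**
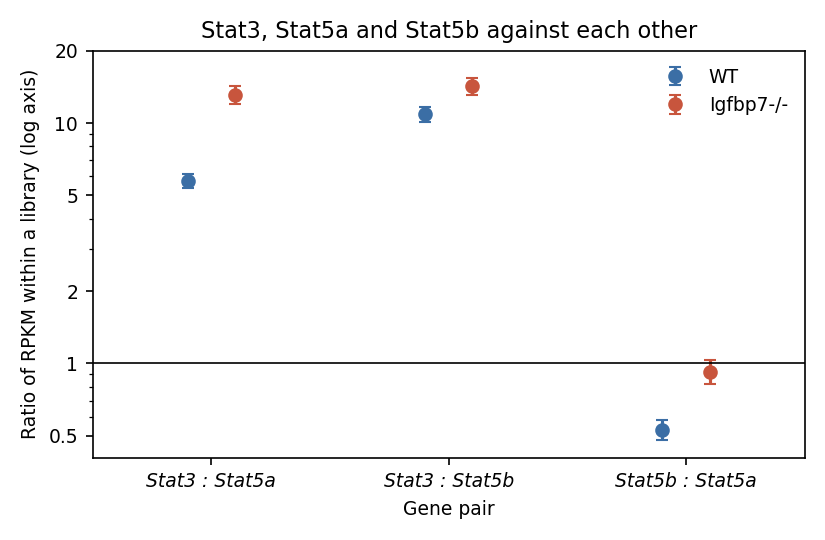
Ratio of the RPKM of 1 STAT gene to that of another within the WT and the Igfbp7-/- library (log axis), with 95% counting intervals. The pairs are *Stat3* to *Stat5a*, *Stat3* to *Stat5b* and *Stat5b* to *Stat5a*. From WT to Igfbp7-/- they went from 5.74 to 13.1, from 10.9 to 14.2 and from 0.528 to 0.919.

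The neighbours of the cluster were compared next, since its 3 STAT genes took different values. Of 10 annotated protein-coding neighbours within 100 kb of the cluster, 6 passed the minimum. Among them 0 were called higher, 2 lower and 4 within 1.5 times, beside 21.4% higher and 23.0% lower among all genes tested. *Dhx58*, an interferon-induced RNA helicase on the *Stat5b* side, was at 21.2 RPM in WT and 4.43 RPM in Igfbp7-/- (log2 ratio -2.23, -2.64 to -1.91). *Ptrf*, a caveola coat gene on the far side of *Stat3*, was at 192 and 88.9 RPM (-1.11, -1.20 to -1.03). *Kat2a*, *Rab5c*, *Ghdc* and *Atp6v0a1* lay within 1.5 times, with *Rab5c* nearest to it at -0.51.

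**Figure D4:**
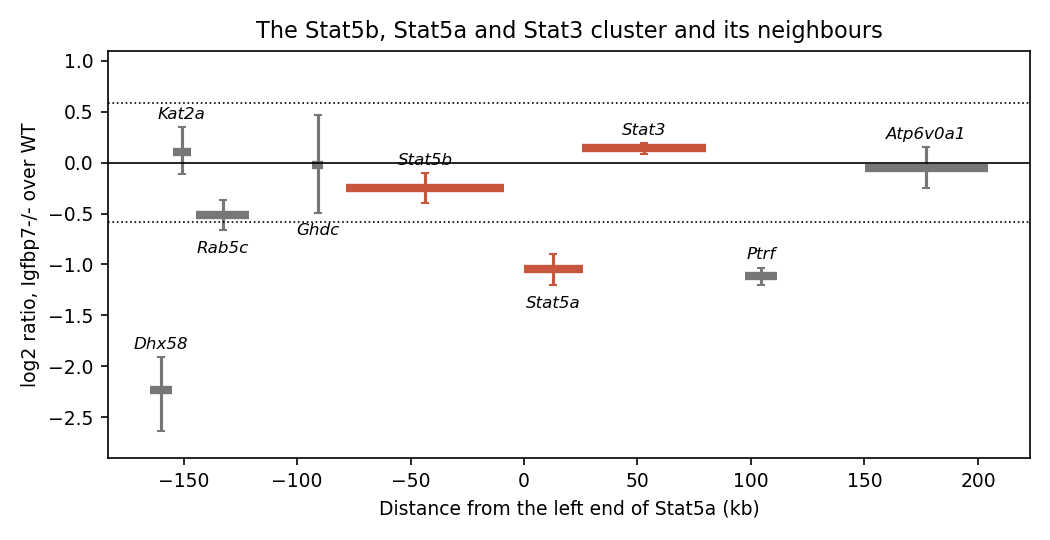
Log2 ratio of Igfbp7-/- to WT (with the 95% counting interval) for *Stat5b*, *Stat5a* and *Stat3* (red) and the 6 neighbours that passed the minimum (grey), placed by distance from the left end of *Stat5a* in kb; bar length is the gene's span. *Stat5a*, at -1.04, lies between *Stat5b* at -0.25 and *Stat3* at 0.14.

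RefSeq promoters (GRCm38.p6, 250 bases before to 50 after each start) were matched for all 6 members, in 9 windows. The promoters of *Stat5a* and *Stat5b* share a stretch of 55 bases, shown because these genes differ in level although they are near copies. It lies at chr11:100860418-100860472 (plus strand) for *Stat5a* and chr11:100822573-100822627 (minus strand) for *Stat5b*, and capitals mark the 49 identical bases (89.1%).
Stat5a promoter stretch: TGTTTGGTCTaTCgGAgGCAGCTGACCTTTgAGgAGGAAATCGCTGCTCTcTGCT
Stat5b promoter stretch: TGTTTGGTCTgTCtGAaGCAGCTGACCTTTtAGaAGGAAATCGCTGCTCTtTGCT
The letters TTCNNNGAA, the core to which most STAT dimers bind, were in none of the 9 windows and in 8.3% of 32851 promoters. The *Stat2* window held both GAAA repeated after any 2 bases, the core of the interferon-stimulated response element (in 3.44% of promoters), and TTC followed by GAA after any 4 bases, a wider spacing that Stat6 prefers (6.95%). Both strands were searched, and the matches did not overlap. The interferon-response letters were also found in 1 of the *Stat4* windows and in no window of the other members. Both *Stat2* matches, in capitals here, lay between 222 and 201 bases before the start. The stretch shown, with bases on either side of the matches, lies at chr10:128270256-128270317 on the plus strand.
Stat2 promoter stretch: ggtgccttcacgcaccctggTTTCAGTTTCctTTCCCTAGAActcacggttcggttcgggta
The matches describe the letters in these windows, and no binding was measured.

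Upstream of the STATs, the kinases were mostly level. For this and the next pathway lists, the shares among all genes tested were 21.4% higher and 23.0% lower. The pathway lists were chosen with earlier results of these data known. Of 4 JAK genes, 1 was called higher and 0 lower in Igfbp7-/-, and the median log2 ratio was -0.02. *Jak2*, which serves the prolactin receptor, was at 191.9 RPM in WT and 152.2 RPM in Igfbp7-/-. *Jak1* was at 360.8 and 283.7 RPM and *Jak3*, the kinase of the common gamma chain, at 6.82 and 8.4 RPM. *Tyk2*, which serves the type I interferon and interleukin 12 receptors, was higher, at 11.6 and 23.5 RPM (log2 ratio 1.01, 0.77 to 1.27).

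Of 13 receptor genes upstream of Stat5 that passed the minimum, out of 16 listed, 2 were higher and 7 lower (median -0.93). *Prlr*, the prolactin receptor, was higher, at 30.2 RPM in WT and 102.6 RPM in Igfbp7-/- (log2 ratio 1.76, 1.63 to 1.91), the opposite direction to *Stat5a*. *Erbb4* was also higher, from 0.204 to 1.17 RPM, but on only 7 reads in WT and 41 in Igfbp7-/- (log2 ratio 2.06, 0.95 to 5.10). It passed the minimum through the Igfbp7-/- library alone. *Ghr*, the growth hormone receptor, was at 50.6 and 66.7 RPM and *Egfr* at 406.6 and 366.2 RPM, both within 1.5 times. The lower genes were the receptor subunits of leukocyte cytokines, *Csf2rb*, *Csf2rb2*, *Il2ra*, *Il2rb*, *Il2rg*, *Il3ra* and *Csf3r*. *Il2rg*, the common gamma chain, was at 47.2 RPM in WT and 11.3 RPM in Igfbp7-/-.

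Of 9 receptor genes upstream of Stat3 that passed, 2 were higher and 4 lower (median -0.48). *Cntfr*, called higher, had 28 reads in WT and 54 in Igfbp7-/-, and its counting interval held 0 (-0.06 to 1.96). *Il6st* (gp130), the signal-transducing chain of the interleukin 6 family, was level at 456.0 and 448.4 RPM. *Lifr*, its partner for leukaemia inhibitory factor, was at 200.6 and 143.3 RPM, within 1.5 times. *Osmr*, the oncostatin M receptor, was lower at 527.8 and 297.4 RPM, and *Il6ra* was higher at 35.2 and 66.4 RPM. Among 9 passing genes upstream of Stat2, Stat4 and Stat6, 1 was higher, 2 lower and 6 within (median -0.02). The type I interferon receptor chains *Ifnar1* (60.8 and 60.1 RPM) and *Ifnar2* (51 and 42 RPM) were within 1.5 times. *Irf9*, which binds DNA together with Stat2, was lower with *Stat2*, at 117.7 RPM in WT and 46.9 RPM in the knockout (log2 ratio -1.32, -1.45 to -1.21). The interleukin 4 receptor chain *Il4ra* was at 234.9 and 297.6 RPM, whereas *Il13ra1* was lower at 125.8 and 56.7 RPM.

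Of 23 ligand genes, 15 passed, with 3 higher and 9 lower (median -0.87). Of the lower genes, *Osm* (-1.45 to 0.03) and *Ifng* (-2.11 to 0.10) had counting intervals that held 0. *Lif*, the activator of Stat3 at involution, was higher, at 35.6 RPM in WT and 63.7 RPM in Igfbp7-/- (log2 ratio 0.84, 0.70 to 0.99). *Il6* and *Il10*, which also activate Stat3, were lower. *Il6* was at 260.0 and 55.9 RPM (-2.22, -2.32 to -2.12), and *Il10* at 35.7 and 3.51 RPM. *Ifnb1*, the type I interferon that acts through Stat2, was lower too, at 47.7 and 11.7 RPM (-2.02, -2.25 to -1.80). *Prl* and *Il3* had 0 reads in both libraries, for which the 95% counting interval on read pairs reached 0.215 RPM (WT) and 0.211 RPM (Igfbp7-/-).

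Of 17 inhibitors, 2 were higher and 3 lower (median -0.02). *Socs2*, which Stat5 induces, was lower at 64.2 and 33.5 RPM (log2 ratio -0.94, -1.08 to -0.79). *Cish*, another Stat5-induced inhibitor, was at 79.4 and 61.2 RPM, and *Socs3*, the feedback inhibitor of Stat3, at 126.5 and 113.8 RPM, both within 1.5 times. Over all 81 pathway genes, 67 passed, of which 11 were higher, 25 lower and 31 within (median -0.33).

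The genes on which each STAT is known to act were then taken from lists of known targets. These lists were chosen with earlier results of these data known, so the counts only describe them. Their counts again stand beside 21.4% higher and 23.0% lower among all genes tested. Of 14 mammary Stat5 targets, 1 was higher and 9 lower (median -1.13). The 9 lower genes were 5 caseins, *Wap*, *Lalba*, *Glycam1* and *Socs2*. *Csn1s2b* was at 300.2 RPM in WT and 42.4 RPM in the knockout, and *Wap*, the whey acidic protein gene, at 13731 and 3866 RPM. *Bcl2l1*, a survival gene, was the exception, higher at 153.5 and 284.2 RPM. *Akt1*, at 83.3 and 69.8 RPM, was within 1.5 times.

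Of the 23 Stat3 targets, 9 were higher, 4 lower and 10 within 1.5 times (median 0.45), beside 21.4% higher and 23.0% lower among all genes tested. *Saa1* and *Saa2*, acute-phase serum amyloid genes, were at 75.4 and 553.2 RPM and at 113.3 and 528.9 RPM in WT and Igfbp7-/-. *Lrg1*, also an acute-phase gene, was at 13.9 and 66.8 RPM. *Osmr* and *Serpina3g* were lower, the latter at 71.2 and 17.4 RPM, and *S100a9* was at 11.6 and 4.83 RPM.

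Of 17 Stat2 targets, all interferon-stimulated genes, 16 were lower and 0 higher (median -2.49). *Rsad2* was at 1494 RPM in WT and 149.1 RPM in Igfbp7-/- (log2 ratio -3.32, -3.38 to -3.27), *Ifit3* at 177.9 and 20.6 RPM and *Mx1* at 61.3 and 7.6 RPM. *Oas2* was the exception, at 19.8 and 21.7 RPM. The lists for Stat4 (5 genes, 2 higher and 2 lower) and Stat6 (7 that passed, 2 higher and 3 lower) were mixed. With a minimum of 10 RPM, the Stat4 list had 1 higher and 0 lower and the Stat6 list 0 higher and 1 lower, and with a pseudocount of 1 RPM the Stat4 list had 0 lower. *Il18r1*, the only Stat4 target with at least 10 RPM, was higher at 6.96 and 21.7 RPM, and *Ccl22* on the Stat6 list was lower at 19.1 and 3.08 RPM. *Irf9*, *Socs2*, *Cish*, *Socs3*, *Osmr*, *Ifng*, *Il12rb2* and *Il4ra* stand on more than 1 of these lists and were counted in each.

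**Figure D5:**
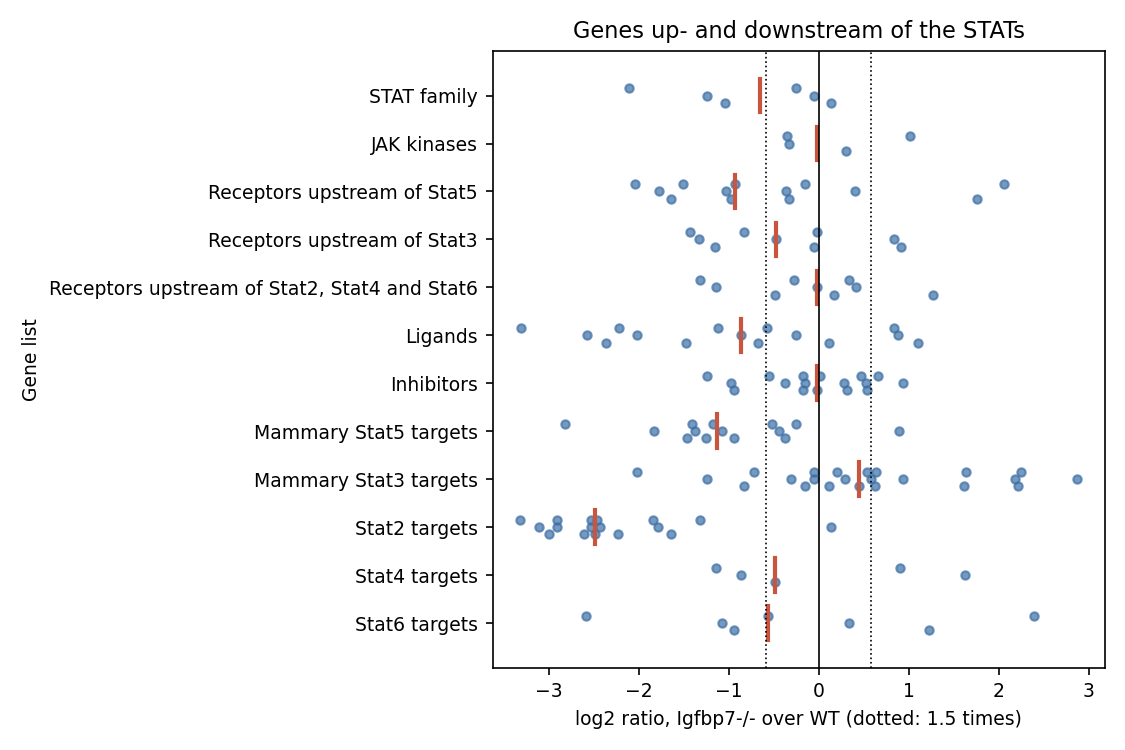
Log2 ratio of Igfbp7-/- to WT of the genes that passed the minimum in each pathway and target list, with the median of each list. Stat2 targets centre on -2.49, Stat5 targets on -1.13 and Stat3 targets on 0.45, against 0.03 for all genes.

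Markers of cells that could carry these STATs and cytokine genes differed too, beside 21.4% higher and 23.0% lower among all genes tested. Counts here cover the markers that passed the minimum, whereas sums run over all listed markers of a type. All 8 macrophage markers were lower in Igfbp7-/-, with levels summing to 190.2 and 64.9 RPM, as were 6 of 6 dendritic cell markers (779.7 and 85.4 RPM) and 4 of 4 B cell markers (10.1 and 1.06 RPM). Of 6 T and NK cell markers, the cells in which Stat4 is best known, 3 were lower and 1 higher (24.9 and 10.5 RPM), and of 6 endothelial markers 5 were lower (1129 and 374.8 RPM). The red cell marker sum was 888.5 RPM in WT and 997.4 RPM in the knockout, and 4 of 6 fibroblast markers were lower (9060 and 4582 RPM). Neutrophil markers summed to 47.3 and 36.2 RPM (3 of 4 lower) and adipocyte markers to 567.4 and 192.8 RPM (3 of 4 lower and 1 higher). *Ly6g*, a neutrophil marker, had 0 reads in WT, which allows up to 0.215 RPM, and 1 read in Igfbp7-/-. RNA of cells that the depletion targets was present in both libraries, since *Pecam1*, the gene of CD31, was at 322.5 RPM in WT and 88.9 RPM in the knockout. The part of these cells in the lower *Stat2*, *Stat4* and *Stat5a* levels was not tested.

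Among 13914 genes with a length, those with the nearest pair of values to *Stat3* and *Stat5a* were picked by the Euclidean distance in log2(RPKM + 0.1) over the 2 libraries. Nearest to *Stat3* were *Nfe2l1* (94.5 and 103.8 RPKM, distance 0.0179), *Pim1* (93 and 106.6) and *Rnh1* (97 and 109.4). Nearest to *Stat5a* were *Mxra8* (16.6 and 8.13 RPKM, distance 0.018), *Tns4* (16.8 and 8.06) and *Mkl1* (16.6 and 8.36). With 2 values per gene, many genes lie close by, and the likeness is a description of these libraries.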

How the data were processed

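The authors sequenced poly(A) RNA on a SOLiD instrument (paired ends of 35 and 75 bases) and mapped it with a Bowtie-based GeneSifter pipeline, allowing 3 mismatches and filtering mitochondrial, ribosomal and small nuclear RNA. The labels' processing notes name Bowtie 0.12.3, SAMtools 0.1.15 and mm9, whereas the methods name a human build. The counter's annotation and its use of strand are not given in the sources used here. Deposited for each gene were the raw read count, the RPM, which the authors obtained by scaling the count to the mapped reads, and the RPKM, which the authors obtained from the RPM and a gene length.

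Ratios used RPM with a pseudocount of 0.1. Intervals are 95% Clopper-Pearson (ratios) or exact Poisson (levels) on read pairs. For the change of a ratio between the libraries they are exact conditional 95% intervals of the odds ratio, on read pairs too. All cover counting error only and leave out the pseudocount. At this depth 1 read was 0.0291 RPM in WT and 0.0286 RPM in Igfbp7-/-. Members and lists were chosen with earlier results of these data known. Named were the STATs, the pathway lists, of each target list up to 3 genes with at least 10 RPM that stood highest and 3 that stood lowest and the neighbours. *Pecam1* and *Ly6g* are named as marker examples. Alternatives were pseudocounts, scalings (edgeR 4.0.16 and DESeq2 1.42.0 for size factors only), minimums, a ratio of 2 and gene lengths. Python 3.11.15 was used, and the scripts were tested on simulated data.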

Additional observations from a re-analysis of the deposited data

How the results depend on the processing

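No STAT gene crossed 1.5 times under any pseudocount or scaling. Scaling to the sum of the listed counts, or to these without ribosomal and small nuclear RNA rows (chosen after seeing the data), moved the log2 ratios of *Stat3* to 0.33 and 0.34, *Stat5a* to -0.86 and -0.85, *Stat5b* to -0.06 and -0.05, and the sum of both Stat5 genes (also added afterwards) to -0.47 and -0.46, which is within 1.5 times. The construction shows the cause, since the listed genes took 82.3% of the reads in WT and 72.3% in Igfbp7-/-. The number of genes called higher, 3006, became 4741 with no minimum, 1696 with a minimum of 10 RPM and 1352 at a ratio of 2. The number called lower, 3231, became 5279, 1672 and 1936. Of the pathway genes, 7 were higher and 13 lower with a minimum of 10 RPM, and 5 were higher at a ratio of 2. With a minimum of 10 RPM, *Stat4* was left out, so 2 STAT genes were lower. The Stat3 contrasts were not affected by scaling, which cancels within a library. No paired analysis was possible because each genotype had 1 library, and for the same reason no replicate could be left out. Depth limits *Stat4*, with 61 reads in Igfbp7-/-, most among the members.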
